A study of Mus musculus with 4 samples.

Results

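Levels of 10 genes that regulate or mark the extraembryonic ectoderm and trophoblast of the mouse placenta were followed in embryos with and without Ddx6. Ddx6 encodes a helicase of the DEAD-box family that joins mRNA turnover to the silencing of translation. The genes were Elf5, Bmp8b, Esx1, Rhox6, Rhox9, Plac1, Ets2, Tead4, Tpbpa and Gcm1, chosen by symbol, and all 10 were found among the 24421 genes of the count table. A filter of 10 or more reads in 1 or more libraries kept 14393 genes, 8 of the 10 among them. Tpbpa and Gcm1 did not reach it in any library.

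There were 4 RNA-seq libraries of ICR mouse embryos. Wild-type embryos of embryonic day 7.5 gave 1 library (E7.5 WT) and those of day 8.5 gave another (E8.5 WT), while Ddx6 -/- embryos of day 8.5 gave 2 (KO1 and KO2). The mutant allele came from a floxed line in which CAG-Cre, driven by a broadly active promoter, had removed exon 5, and the mutants were collected from crosses of heterozygotes. Both KO libraries were pools. KO1 joined an embryo from before head-fold formation with an embryo that had head folds, and KO2 held only embryos from before that stage. How many embryos entered each wild-type library is not given in the sources used here. Extraembryonic tissue or yolk sac was taken for genotyping, and how much of it was left in each library is likewise not given. The methods describe this for E8.5 embryos and do not say whether it was done at E7.5.

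The extraembryonic ectoderm is the tissue of the early embryo that adjoins the epiblast and holds the trophoblast stem cells. It gives rise to the chorion and, with the ectoplacental cone, to the trophoblast layers of the placenta. TEAD4, working with YAP1, opens the trophoblast programme before implantation, and ELF5 and ETS2 keep trophoblast stem cells in their state. BMP8B is a signal that this tissue sends to the adjoining epiblast, where it takes part in the setting aside of primordial germ cells. Esx1, Rhox6 and Rhox9 are X-linked homeobox genes of placental tissue, Plac1 is an X-linked gene of trophoblast, Gcm1 drives formation of syncytiotrophoblast, and Tpbpa marks the ectoplacental cone and spongiotrophoblast.

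KO1 was the shallowest library, with 8198402 counts in all, and E8.5 WT the deepest, with 12562640. Levels are given as reads, or as CPM, reads scaled to a common library total, after normalization by the trimmed mean of M-values. Folds are ratios of normalized counts with exact Clopper-Pearson 95% intervals, which cover counting error only. Log2 changes are differences of log2 CPM with a prior count of 2 reads, and a change past 1 or -1 in a library was the threshold used. Ddx6, the targeted gene, had 2943 E7.5 WT reads and 5715 E8.5 WT reads, with 706 in KO1 and 929 in KO2. The mean of its KO changes relative to E8.5 WT was -2.54 ± 0.10 on the log2 scale (SD, n = 2).

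KO2 stood apart from the other libraries. Xist, the RNA that coats an inactive X chromosome, had 17340 reads in KO2 where KO1 had 15, E8.5 WT had 17 and E7.5 WT had 46. The 4 Y-linked genes checked (Eif2s3y, Kdm5d, Uty and Ddx3y) had 0 reads in KO2 and 162 or more in each of the other libraries. By these reads KO2 alone held no male embryo, so each comparison with KO2 is also one of sex. Since 4 of the 10 genes are X-linked, each result is given for KO1 and KO2 apart. Among the 509 X-linked genes kept, 6.88% were past the threshold upward from KO1 to KO2, against 5.97% of 13389 autosomal genes, and the median change was 0.03 in both.

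Sequences before an annotated start are shown for genes that carry the patterns described below, namely Elf5 and Bmp8b, which were high in E7.5 WT alone, and the X-linked Plac1 and Esx1, of which Plac1 was high in KO2 and Esx1 was not. Each run lies just before an annotated RefSeq start, 5′ to 3′ on the strand of the gene (GRCm38.p6), without bases that GENCODE places in an exon of the gene. Capitals mark CG dinucleotides, the sites at which mammalian DNA is methylated.
Elf5, downstream start: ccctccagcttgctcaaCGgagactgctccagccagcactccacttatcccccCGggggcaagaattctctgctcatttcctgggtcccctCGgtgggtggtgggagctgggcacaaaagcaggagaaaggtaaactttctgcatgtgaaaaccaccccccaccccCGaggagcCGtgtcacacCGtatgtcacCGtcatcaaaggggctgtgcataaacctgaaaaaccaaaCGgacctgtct
Bmp8b: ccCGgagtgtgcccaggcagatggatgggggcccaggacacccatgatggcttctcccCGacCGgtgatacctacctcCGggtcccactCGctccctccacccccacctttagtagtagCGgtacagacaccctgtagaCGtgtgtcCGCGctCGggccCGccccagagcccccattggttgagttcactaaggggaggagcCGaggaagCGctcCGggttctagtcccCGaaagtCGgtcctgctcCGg
Plac1, upstream start: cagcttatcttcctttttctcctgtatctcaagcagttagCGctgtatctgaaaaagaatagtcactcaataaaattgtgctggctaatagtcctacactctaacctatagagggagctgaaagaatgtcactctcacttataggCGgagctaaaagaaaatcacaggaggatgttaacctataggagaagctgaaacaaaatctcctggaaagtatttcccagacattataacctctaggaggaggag
Esx1, RefSeq start within the GENCODE gene: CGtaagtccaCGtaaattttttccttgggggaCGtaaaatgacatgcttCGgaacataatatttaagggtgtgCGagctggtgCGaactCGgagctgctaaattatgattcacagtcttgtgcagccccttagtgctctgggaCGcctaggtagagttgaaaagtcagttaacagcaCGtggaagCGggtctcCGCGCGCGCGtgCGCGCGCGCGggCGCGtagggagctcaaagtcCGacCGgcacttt
The positions are chr2:103423818-103424061 on the plus strand for Elf5, chr4:123104911-123105160 on the plus strand for Bmp8b, chrX:53240112-53240360 on the minus strand for Plac1 and chrX:137120327-137120576 on the minus strand for Esx1, whose RefSeq start lies 1757 bases inside the gene as GENCODE places it.

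RefSeq promoter sequences matched 7 of the 10 genes, and Rhox6, Rhox9 and Tead4 had none in the table used. Over the 250 bases before a start, the median of 32851 promoters was 6 CG dinucleotides. Bmp8b had 17, Esx1 24 and Ets2 25. Elf5 had 2 at its upstream start and 8 at its downstream start, which lies 11970 bases further on. Plac1 had 2 and 4 at starts 125705 bases apart, Tpbpa had 2 and Gcm1 had 1. Which start was in use cannot be read from gene counts. The TEAD motif GGAATG, read on both strands, was found once in these windows, 173 bases before the upstream start of Elf5. It was held by 12.6% of all promoters. All 250 bases of that Elf5 window, and of the Ets2 window, lie in exons that GENCODE gives to the same gene. The upstream Elf5 run is not printed for that reason. The ETS motif CGGAAG, held by 13.6% of all promoters, and the GCM1 motif ATGCGGGT, held by 0.207%, were in none of the windows of the 7 genes. A match of letters is a description and not a site of binding.

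The level of the 10 genes in each library divided them into 3 patterns and a pair near 0. Elf5 and Bmp8b were high in E7.5 WT and low in each E8.5 library, and Esx1 took the same course with a smaller difference. Rhox6, Rhox9 and Plac1 were highest in KO2. Ets2 and Tead4 lay within the threshold in each library comparison. Tpbpa and Gcm1 had 2 reads or fewer everywhere. In bulk libraries such as these, fewer cells of a type and less RNA per cell cannot be told apart.

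**Figure D1:**
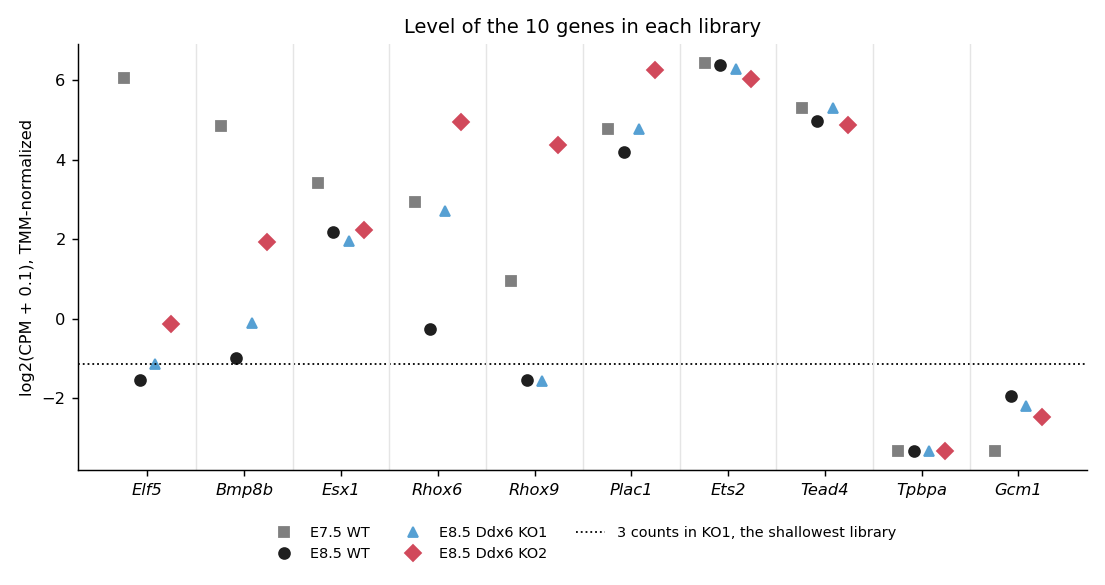
Level of each of the 10 genes in each library as log2(CPM + 0.1) on the vertical axis, 1 point per library, with no error bars since each point is a single library. Elf5 and Bmp8b have their highest point in E7.5 WT, Rhox6, Rhox9 and Plac1 in KO2, and Tpbpa and Gcm1 lie below the dotted line, the level of 3 counts in KO1.

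Elf5 (chr2:103411688-103450989, plus strand, GRCm38), an ETS factor of trophoblast stem cells, had 795 E7.5 WT reads and 3 E8.5 WT reads, with 3 in KO1 and 10 in KO2. These reads correspond to 66.8, 0.244, 0.357 and 0.821 CPM. The level was 274-fold lower in E8.5 WT than in E7.5 WT (95% interval 93.4 to 1331, counted on 3 reads at E8.5). Against E7.5 WT it was 187-fold lower in KO1 (63.8 to 909) and 81.4-fold lower in KO2 (44.1 to 171), so the mutants were on the E8.5 side of this difference. Between the E8.5 libraries the intervals held 1, with a ratio to E8.5 WT of 1.46 in KO1 (0.196 to 10.9) and 3.36 in KO2 (0.866 to 19.0). These counts are too low to tell the E8.5 libraries apart, although the fitted log2 change of KO2 against E8.5 WT, 1.24, is past the threshold.

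Bmp8b (chr4:123105165-123132099, plus strand), which encodes a secreted ligand of the bone morphogenetic protein (BMP) family, had 340 E7.5 WT reads and 5 E8.5 WT reads, with 7 in KO1 and 45 in KO2. It was 70.3-fold lower in E8.5 WT than in E7.5 WT (29.8 to 218), 34.3-fold lower in KO1 (16.5 to 85.9) and 7.74-fold lower in KO2 (5.66 to 10.8). In KO2 the level was 9.08-fold above E8.5 WT (3.61 to 29.3), while KO1 was 2.05-fold above it with an interval that held 1 (0.560 to 8.19). The KO2 interval overlaps that of Elf5 (0.866 to 19.0), so no difference between these genes is shown. Of the 3815 stretches of 50 bases in Bmp8b transcripts, 5.77% also occur in another gene, mostly in Bmp8a. Bmp8a itself, a second BMP8 ligand, had 32 E7.5 WT reads and 2 E8.5 WT reads, with 9 in KO1 and 15 in KO2.

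Esx1 (chrX:137115397-137122083, minus strand), a homeobox gene of chorion and labyrinth trophoblast, had 125 E7.5 WT reads and 55 E8.5 WT reads, with 32 in KO1 and 56 in KO2. It was 2.35-fold lower in E8.5 WT than in E7.5 WT (1.70 to 3.29), and 2.76-fold (1.86 to 4.20) and 2.29-fold (1.66 to 3.19) lower in KO1 and KO2. The 3 E8.5 libraries lay close together, at 4.48, 3.81 and 4.60 CPM, and both KO ratios to E8.5 WT had intervals that held 1.

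Rhox6 (chrX:37826910-37829857, plus strand), a homeobox gene of the Rhox cluster on the X chromosome, had 90 E7.5 WT reads and 9 E8.5 WT reads, with 54 in KO1 and 376 in KO2. Both KO libraries were above E8.5 WT, by 8.78-fold in KO1 (4.30 to 20.2) and 42.1-fold in KO2 (22.0 to 92.9). Rhox6 was the only one of the 10 genes past the threshold upward in both. The mean log2 change was 3.97 ± 1.58 (SD, n = 2), and the spread came from KO2, which was 4.80-fold above KO1 (3.60 to 6.51). Read against the earlier stage, KO1 was at the level of E7.5 WT within counting error, with a ratio of 0.850 (0.595 to 1.20), and KO2 was 4.08-fold above it (3.23 to 5.19).

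Rhox9 (chrX:37899097-37901770, minus strand) lies 69240 bases from Rhox6 and is read in the opposite direction. It had 22 E7.5 WT reads and 3 E8.5 WT reads, with 2 in KO1 and 252 in KO2, so it was high in KO2 alone. KO2 had 84.7 times the level of E8.5 WT (28.7 to 414), 86.8 times that of KO1 (23.8 to 721) and 11.2 times that of E7.5 WT (7.22 to 18.2). In KO1 the ratio to E8.5 WT was 0.976 (0.0815 to 8.52), and the SD over the KO pair, 3.99 on the log2 scale, was larger than the mean change of 2.8. Rhox6 and Rhox9 transcripts have 159 stretches of 50 bases in common, 16.5% of those of Rhox6 and 6.28% of those of Rhox9, so part of either value is uncertain. The options given in the study's methods hold none that would count reads placed at several sites.

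Plac1 (chrX:53069995-53240111, minus strand), whose product is needed for normal growth of the placenta, had 323 E7.5 WT reads and 223 E8.5 WT reads, with 230 in KO1 and 939 in KO2. It was 1.51-fold above E8.5 WT in KO1 (1.25 to 1.82), which is short of the threshold, and 4.25-fold above it in KO2 (3.67 to 4.94). KO2 was also 2.84-fold above E7.5 WT (2.50 to 3.23), while KO1 had the level of E7.5 WT at a ratio of 1.01 (0.848 to 1.20). Plac1 therefore shared with Rhox6 and Rhox9 a level in KO2 above that of both WT stages.

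Ets2 (chr16:95702075-95721051, plus strand), an ETS factor needed in trophoblast, had 1021 E7.5 WT reads and 1031 E8.5 WT reads, with 653 in KO1 and 797 in KO2. Relative to E8.5 WT its mean log2 change was -0.23 ± 0.18 (SD, n = 2), with KO2 1.28-fold lower (1.17 to 1.41) and KO1 1.08-fold lower (0.977 to 1.19). Tead4 (chr6:128224288-128300823, minus strand) had 466, 386, 331 and 356 reads in the same order of libraries. KO1 was 1.25-fold above E8.5 WT (1.08 to 1.46) and the KO2 ratio was 0.930 (0.803 to 1.08), a mean log2 change of 0.11 ± 0.30 (SD, n = 2). The lowest and the highest library of either gene differed by less than the threshold.

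Tpbpa (chr13:60938492-60941984, minus strand) had 0 reads in all 4 libraries, which allows a level of up to 0.357 CPM in KO1, the shallowest library, and up to 0.252 CPM in any of the others (3 counts in each). Gcm1 (chr9:78051924-78065624, plus strand) had 0 E7.5 WT reads and 2 E8.5 WT reads, with 1 in KO1 and 1 in KO2. The depth did not allow a comparison for either gene.

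Levels per kilobase of annotated exon, in CPM per kb, put the 8 genes kept in order within a library. In E7.5 WT, Plac1 stood at 19.5, Ets2 at 14.9, Elf5 at 11.4, Tead4 at 10.9, Rhox6 at 7.49, Bmp8b at 7.37, Esx1 at 5.29 and Rhox9 at 0.743. Elf5 moved from the third place there to the eighth in E8.5 WT, at 0.0415 CPM per kb, below Rhox9 at 0.0981 and Bmp8b at 0.105. In KO1 the order began with Plac1 at 19.6, Ets2 at 13.5, Tead4 at 11.0 and Rhox6 at 6.37. In KO2 it was led by Plac1 at 55.2 and Rhox6 at 30.5, with Ets2 at 11.3, Rhox9 at 8.31 and Tead4 at 8.12 behind. Neighbours such as Rhox6 and Bmp8b in E7.5 WT, or Rhox9 and Tead4 in KO2, differ by little, and 1 library per point gives no spread between replicates to set such an order against.

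Counted against E8.5 WT, 1 of the 10 genes (Rhox6) was higher in both KO libraries, where 3.44% of all genes kept were, and 0 were lower, where 1.79% were. Taken singly, KO2 was higher for 5 (Elf5, Bmp8b, Rhox6, Rhox9 and Plac1), against 9.41% of all genes, and KO1 for 1 (Rhox6), against 4.97%. Elf5 is counted there on 10 reads against 3, with an interval that holds 1. Neither was lower for any of the 10, where 5.91% of all genes were lower in KO2 and 3.31% in KO1. Counted against E7.5 WT, 3 (Elf5, Bmp8b and Esx1) were lower in both KO libraries, where 2.7% of all genes were, and 0 were higher, where 6.91% were. E8.5 WT was lower than E7.5 WT for 5 (Elf5, Bmp8b, Esx1, Rhox6 and Rhox9), against 7.82% of all genes, and higher for 0, against 12.2%. KO2 was higher than KO1 for 4 (Bmp8b, Rhox6, Rhox9 and Plac1), against 5.99% of all genes, and lower for 0, against 4.89%. The 8 genes kept had a median log2 change of 0.33 for KO1 and 1.66 for KO2 relative to E8.5 WT, where the medians of all genes were -0.01 and 0.00. Each WT stage is a single library, so all comparisons with it have that library in common.

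**Figure D2:**
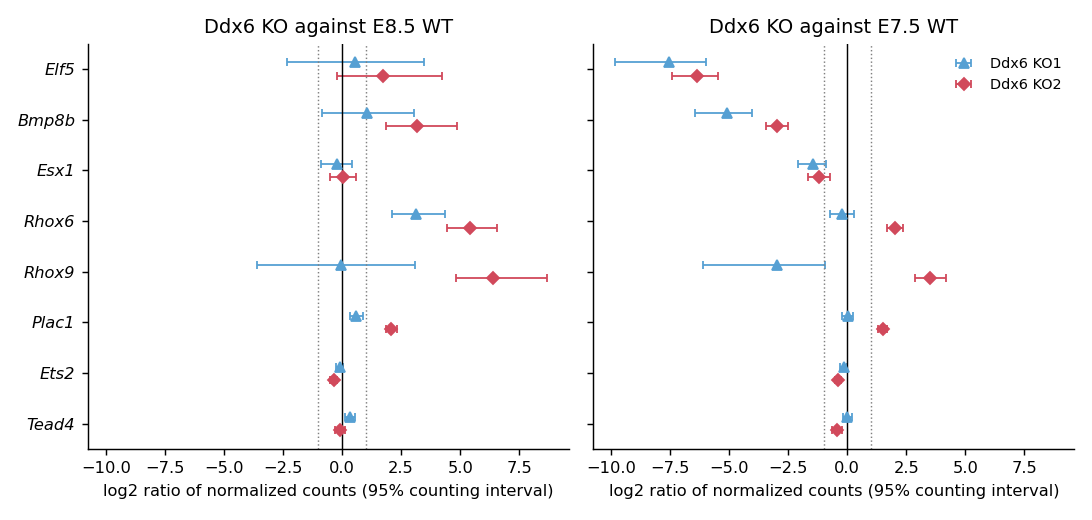
Log2 ratio of normalized counts of the 8 genes kept in KO1 (triangles) and KO2 (diamonds) against E8.5 WT (left) and E7.5 WT (right), with 95% counting intervals and dotted lines at -1 and 1. Rhox6 alone has both points past 1 on the left, and Elf5, Bmp8b and Esx1 have both points past -1 on the right.

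The edgeR quasi-likelihood test, whose only measure of spread was the KO pair, called 0% of the 14393 genes when the reference was E8.5 WT and 0% when it was E7.5 WT, after Benjamini-Hochberg adjustment. At an unadjusted p under 0.05 it had 1052 and 3511 genes. Rhox6 was the one of the 10 among the 1052, with an adjusted p of 0.666 by edgeR, and it was higher in 2 of 2 KO libraries. Against E7.5 WT, Elf5 had an adjusted p of 0.128, Bmp8b 0.141 and Esx1 0.176 by edgeR, each lower in 2 of 2. DESeq2, the alternative test, called 31 genes against E8.5 WT (0.261% of those with an adjusted p), Rhox6 among them with an adjusted p of 0.00537. Against E7.5 WT it called 721 (6.21%), with an adjusted p of 4.1e-16 for Elf5 and 0.00846 for Bmp8b. Ddx6 itself, 5.53-fold lower in KO1 and 6.10-fold lower in KO2 than in E8.5 WT, was not called by edgeR either. The lack of an edgeR call is therefore not evidence that a gene did not change. The KO replicates are separate pools, and with 1 library per WT stage no test could measure the spread among wild-type embryos.

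The rest of the trophoblast programme was described by marker lists. Of 10 markers of trophoblast stem cells and extraembryonic ectoderm, 0 passed the threshold in both KO libraries against E8.5 WT. Relative to E7.5 WT, 4 were lower in both, namely Tfap2c and Esrrb, factors of trophoblast stem cells, the ligand Wnt7b, and Ddah1. Reads are given from here on in the order E7.5 WT, then E8.5 WT, then KO1, then KO2. Esrrb had 532, 37, 22 and 33 reads and Wnt7b had 762, 19, 8 and 16, the same course as Elf5. The rest of the list took other courses. Sox2 had 607, 1322, 473 and 1174 reads, Fgfr2 had 976, 1623, 1162 and 899, Gata3 had 193, 220, 165 and 213, and Id2 had 1754, 1457, 862 and 604. Eomes, a T-box factor of both trophoblast and primitive streak, had 1333, 64, 77 and 3128, and it and Tfap2c, with 879, 123, 118 and 334, were the 2 of the list past the threshold upward in KO2 against E8.5 WT. Cdx2, a factor of trophoblast stem cells and of the posterior embryo, went the other way, with 990, 1326, 653 and 150. The list had median log2 changes of -0.20 for KO1 and -0.18 for KO2 relative to E8.5 WT.

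Markers of the later trophoblast differed by cell type. In the list of 8 for ectoplacental cone and spongiotrophoblast, 7 were kept and 0 passed the threshold in both KO libraries against E8.5 WT. Ascl2, a factor of the ectoplacental cone, had 358, 10, 11 and 54 reads, and Tpbpb, like Tpbpa, had 0 in every library. Among 5 giant cell markers, Prl3d1, the placental lactogen of the first giant cells, had 27, 1, 3 and 4156 reads, and Prl2c2, proliferin, had 3, 0, 4 and 1400. Both were higher in both KO libraries, on 4 reads or fewer in KO1. Hand1, a giant cell and mesoderm factor, had 2570, 2229, 3544 and 4028, Ctsq had 1 read in all and Prl3b1 had 0. The summed CPM of the list was 219, 181, 423 and 787, from 2600, 2230, 3551 and 9585 reads. Outside KO2 nearly all of these reads were of Hand1, so the sum there is mainly the level of that gene. Of 14 chorion and syncytiotrophoblast markers, 12 were kept and Ovol2, a zinc-finger factor, passed the threshold upward in KO1 as well as KO2, with 55, 14, 23 and 47 reads. The defining syncytins Syna and Synb had 3 and 0 reads in all.

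Some maternal markers and the epiblast markers were also high in KO2. The summed CPM of 9 decidual markers was 226, 117, 170 and 329. Their median log2 change relative to E8.5 WT was 0.64 for KO1 and -0.09 for KO2. Prl8a2, a decidual prolactin, had 1318, 26, 64 and 1433 reads, and Cyp11a1, a steroid enzyme gene that giant cells also use, had 213, 5, 15 and 1213. These were the 2 of 9 that both KO libraries had above E8.5 WT. Without these 2, left out after their values were seen, the other 7 had a summed CPM of 97.5, 115, 161 and 112. The lack of a rise in KO2 in that sum follows in part from the choice and says nothing of decidual tissue. Among the 7, Pgr was past the threshold upward in KO2 against E8.5 WT and Lum was past it downward. Hoxa10, with 93, 160, 22 and 82 reads, and Hoxa11, with 66, 72, 9 and 51, were past it downward in KO1. All 6 uterine natural killer markers (Gzmc, Gzmd, Gzme, Gzmf, Gzmg and Prf1) had log2 changes past the threshold in both, with 33, 3, 25 and 225 reads in sum. In KO1 these calls rest on 2 to 7 reads a gene against 0 or 1, and the counting interval held 1 for each but Gzmg. The 5 epiblast markers were each higher in KO2 than in E8.5 WT, and Nanog and Fgf5 in both KO libraries. Their summed CPM was 577, 129, 200 and 770. Rhox6, Rhox9, Plac1 and Bmp8b were therefore highest, among the E8.5 libraries, in the one with the highest summed giant cell, uterine natural killer and epiblast markers and the most Prl8a2 and Cyp11a1 reads. KO2 also had the highest sum of ectoplacental cone and spongiotrophoblast markers, at 427, 420, 453 and 495 CPM. The same held for parietal endoderm markers, at 1458, 1295, 1586 and 1825 CPM. Among the E8.5 libraries alone, KO2 also led for trophoblast stem cell and extraembryonic ectoderm markers, at 811, 558, 464 and 575 CPM. It led there too for primordial germ cell markers, at 84.0, 14.2, 18.2 and 33.8 CPM. For chorion and syncytiotrophoblast markers and for visceral endoderm markers, E8.5 WT had the highest sum of the E8.5 libraries. The part of each list in the levels of Rhox6, Rhox9, Plac1 and Bmp8b was not tested. The other lists showed 0 genes higher in both KO libraries among 7 of visceral endoderm, 6 of parietal endoderm and 5 of primordial germ cells, and Apoa1 and Rbp4 of visceral endoderm were lower in both.

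**Figure D3:**
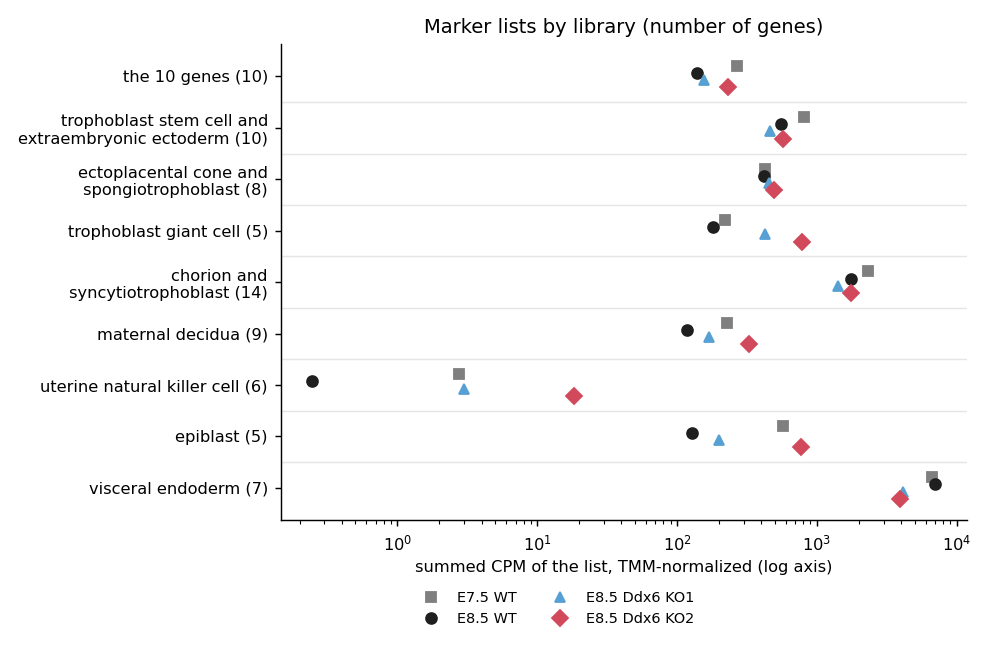
Summed normalized level of the 10 genes and of 8 marker lists in each library, in CPM on a log axis, with the number of genes in brackets and 1 point per library. KO2 has the highest point for giant cell, uterine natural killer, epiblast and, by a small margin, ectoplacental cone markers, and for decidual markers through Prl8a2 and Cyp11a1. E7.5 WT has it for the 10 genes and for trophoblast stem cell markers. Outside KO2 the giant cell sum is mainly Hand1.

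Genes of the pathways around the 10 were described in the same way. In the ETS family other than Elf5 and Ets2, 21 of 24 genes were kept. Elf4 and Spdef were past the threshold upward in both KO libraries against E8.5 WT, and 0 were past it downward. Elf4 had 223, 98, 169 and 286 reads and Spdef 24, 12, 21 and 34. Elf3 and Ehf, epithelial members close to Elf5 in sequence, had 712, 95, 104 and 393 reads and 7, 6, 5 and 28 reads, so both were high in KO2 and not in KO1. Erg and Fli1, of blood vessel and blood cells, were low in KO2 at 23 and 71 reads, where E8.5 WT had 158 and 333. The median log2 change of the 21 was 0.04 for KO1 and -0.14 for KO2.

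For TEAD and Hippo signalling, in which the kinases LATS1 and LATS2 hold back YAP1, the partner of TEAD4, 21 of 22 genes were kept and 0 passed the threshold in both KO libraries against E8.5 WT in either direction. Yap1 had 3459, 4144, 2904 and 4346 reads, and Tead1 and Tead2 were also within the threshold in both KO libraries. Vgll1, a TEAD cofactor of trophoblast, had 31, 0, 0 and 1 reads and so took the course of Elf5. Among 16 partners of BMP8B (other ligands, receptors, SMAD proteins and the processing enzymes Furin and Pcsk6), Bmp8a was the 1 past the threshold upward in both KO libraries and 0 were past it downward. The receptor gene Bmpr1a had 1458, 2597, 1654 and 2082 reads and Smad1 had 508, 624, 469 and 735.

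**Figure D4:**
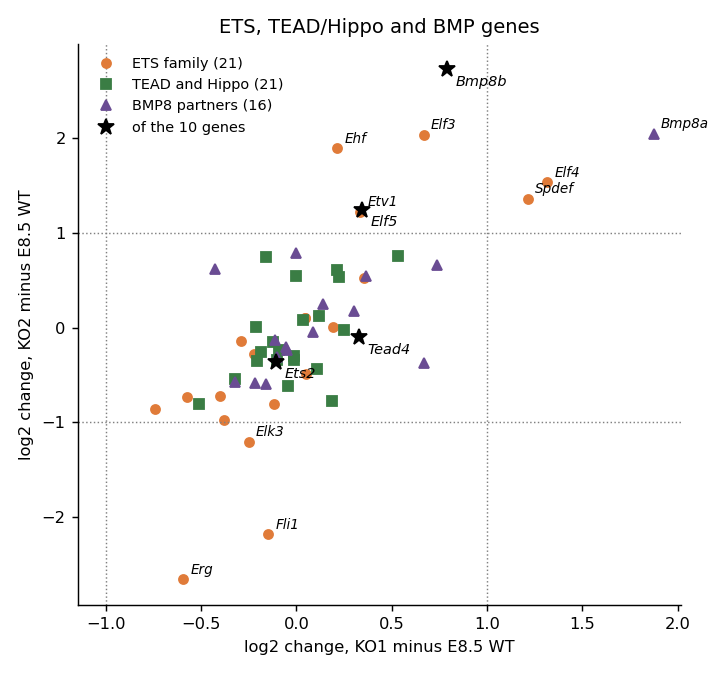
Log2 change against E8.5 WT in KO1 (horizontal) and KO2 (vertical) for kept genes of the ETS family, of TEAD and Hippo signalling and of BMP8 partners, with Elf5, Ets2, Tead4 and Bmp8b as stars and dotted lines at -1 and 1. Elf4, Spdef and Bmp8a lie past 1 on both axes, and of the stars Elf5 and Bmp8b lie past 1 in KO2 alone.

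The Rhox cluster holds 29 other genes in the table, of which 17 had 0 reads everywhere and 3 passed the filter. Stretches that these 29 share with other genes were not measured. Reads placed at several sites may be missing from their counts, so 0 reads need not mean no RNA. Rhox5, the most abundant of them, had 3094 E7.5 WT reads and 726 E8.5 WT reads, with 445 in KO1 and 878 in KO2. Rhox4g had 18, 1, 0 and 1, and Rhox12 had 0, 0, 0 and 24. A high level in KO2 was thus found for Rhox6, Rhox9 and Rhox12 and was not found for Rhox5 or Rhox4g. Rhox5, Rhox4g and Rhox12 were not past the threshold upward in both KO libraries.

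The genes most like Elf5 and Rhox6 were found by the Euclidean distance of centred log2 CPM over the 4 libraries, among 12596 genes with a mean of 20 or more reads. Nearest to Elf5 was Dnmt3l, a cofactor of the de novo DNA methyltransferases, at a distance of 0.67, with 618, 5, 3 and 14 reads. Next came Sohlh2 at 1.19, Wnt7b at 1.53, Bmp8b at 2.29 and AU018091 at 2.48. Nearest to Rhox6 was Serpinb9b, a serpin, at 0.41, with 120, 9, 55 and 509 reads. It was followed by Platr10 at 0.53, Irs3 at 0.59, Erv3 at 0.61 and Pla2g5 at 0.80, all with their highest level in KO2. The likeness rests on 4 libraries that these genes share. No search was made for Tpbpa, which had no reads.

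**Figure D5:**
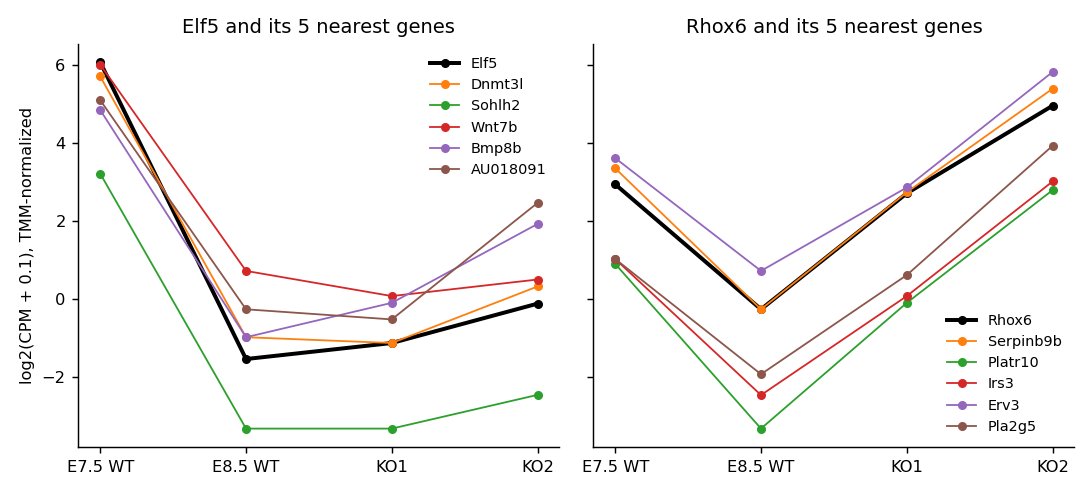
Level as log2(CPM + 0.1) in each of the 4 libraries for Elf5 (left) and Rhox6 (right), drawn thick, and the 5 genes nearest to each. The Elf5 group is highest in E7.5 WT, and the Rhox6 group is lowest in E8.5 WT and highest in KO2, with KO1 near E7.5 WT or below it.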

How the data were processed

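RNA-seq was performed by the authors on embryos with a stranded mRNA kit, with extraembryonic tissue or yolk sac used for genotyping. Per the authors' methods, reads were trimmed (Cutadapt 2.8), checked (FastQC 0.11.7), aligned to mm10 (HISAT2 2.1.0, SAMtools 1.9) and counted over exons of each gene on the reverse strand (featureCounts 2.0.0). The deposited values are raw counts per gene, not normalized. Tool versions follow the submitters' processing notes.

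Libraries were grouped by their titles. Counts were normalized by TMM in edgeR 4.0.16 (R 4.3.3) over the whole table. Genes with 10 or more counts in 1 or more libraries were kept. A change was called past a log2 change of 1 or -1, in both KO libraries where KO was compared. Two-sided quasi-likelihood tests (edgeR, 1 residual degree of freedom, from the KO pair) and DESeq2 1.42.0 were fitted to all 4 libraries as 3 groups. The edgeR adjustment was over all genes kept. DESeq2 gave no adjusted p to 2512 of them against E8.5 WT and 2791 against E7.5 WT. A count of 3 was the floor. Reads carry no molecular identifiers, so intervals cover counting error only. The steps were tested on simulated data.

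Genes named are the 10, Ddx6, the Xist and Y-linked check, list genes that passed the threshold for both KO libraries against E8.5 WT or that define a list, and the 5 genes nearest to Elf5 and Rhox6. Other list genes given with values, such as Eomes, Cdx2, Elf3, Ehf, Erg, Fli1, Vgll1, Hoxa10 and Hoxa11, were chosen after their values were seen. The 10 genes and all lists were chosen with earlier results of these data known. Positions and exon lengths came from GENCODE (GRCm38), matched by symbol for 96.6% of genes kept, and promoters from RefSeq. Results were recomputed with a threshold of 2, a prior count of 0.5, size factors from DESeq2, CPM on raw totals, a stricter filter (50 counts) or none, the DESeq2 test, and without each KO library in turn. Figures were drawn with matplotlib 3.10.9.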

Additional observations from a re-analysis of the deposited data

How the results depend on the processing

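Of 164 values recomputed under alternatives, 158 stayed within their limit (1 SD of the KO pair, or 1.5 times a count), 6 moved further and 0 reversed. Leaving out KO1, so that KO2 alone decided, gave 5 genes higher than E8.5 WT (Bmp8b, Rhox6, Rhox9, Plac1 and, with an interval that holds 1, Elf5), and leaving out KO2 gave 1 (Rhox6). Against E7.5 WT the range was 0 to 3, and the 3, Rhox6, Rhox9 and Plac1, were higher without KO1. At a threshold of 2, KO2 was higher than KO1 for 2 genes (Rhox6 and Rhox9) in place of 4. DESeq2 called 1 of the 10 genes against E8.5 WT (Rhox6) and 2 against E7.5 WT (Elf5 and Bmp8b), where edgeR called 0, and edgeR with no filter called 2 against E7.5 WT (Elf5 and Bmp8b). The cause was not tested. The 80 mean changes of single genes with no library left out stayed within 1 SD, a limit as wide as 3.99 for Rhox9. Those under the stricter filter or none could not move, since totals and TMM factors came from the whole table. With 1 of 2 libraries left out a mean cannot move by more than the SD of the KO pair. Neither kind of value says anything of stability. Plain CPM moved the median of all genes in KO2 against E7.5 WT to 0.11 from 0.07. No paired analysis was possible, since each WT stage had 1 library and the labels record no pairing.

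Precision is limited by 1 library per WT stage, by KO pools of unlike stage, and by counts of 10 or fewer for Elf5 in the E8.5 libraries for Rhox9 and Bmp8b in part of them, and for Rhox6 in E8.5 WT, the reference of its call. Tpbpa and Gcm1 could not be compared at this depth. Stage, genotype, the sex of the embryos, the makeup of the pools and the tissue removed for genotyping cannot be told apart in these libraries.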
